A study of Rattus norvegicus with 9 samples.

Results

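The miR-30 family was followed through small RNA libraries of the rat left ventricle, on both arms of its hairpins. The members were all sequences filed under the rat names mir-30a, mir-30b, mir-30c, mir-30d or mir-30e, on the major strand, on the opposite (*) strand or as reads of the precursor. They numbered 3062 of the 46358 annotated sequences of the study (31220 of which carried rat names) and fell into 29 entries, an entry being a name on 1 strand or the precursor reads of a name. They held 799326 reads over the 9 libraries, 756054 on major strands, 23596 on * strands and 19676 as precursor reads. These reads made up between 9.12% and 12.2% of the annotated reads of a library.

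The libraries came from 3 male Sprague-Dawley rats aged 8 months. The free wall of each left ventricle was cut into epicardium, mid-myocardium and endocardium, so each layer had 3 libraries and each animal (hearts 6, 7 and 8) gave 1 library per layer. Annotated reads ran from 283991 (mid-myocardium of heart 6) to 1428025 (endocardium of heart 7), and values are given as RPMM (reads in 1000000 annotated reads), where 3 reads correspond to between 2.10 and 10.6 RPMM. Values after ± are SDs, of the 3 libraries of a layer or, for shares of reads, of all 9 libraries, which come from 3 animals. The paper cautions that preferential cloning or PCR may skew the reads of different miRNAs. Ranks and shares between strands below therefore compare reads, which may differ from amounts in the tissue.

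MicroRNAs are short RNAs that guide a silencing complex to messenger RNAs, and the stretch near the 5′ end called the seed does most of the pairing with the target. Each is cut from a hairpin, and the 2 arms of the hairpin give 2 strands, of which one is usually kept and the other, written with a *, is mostly lost. The miR-30 family is abundant in heart muscle and is known as a regulator of connective tissue growth factor, a matrix-promoting protein.

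The strands that carry the results are shown first, with the seed (nts 2 to 8) in capitals, to show what the members share and where they part. The reference sequences are from RefSeq on the GRCr8 build, which matched 3 of the 5 major strands (miR-30a, miR-30c and miR-30e) and 3 of the 5 * strands (miR-30a*, miR-30c-1* and miR-30c-2*). All 5 major strands have the seed GUAAACA, and so does miR-384-5p, which carries another name and is not a member here. miR-384 had only 51 reads in all, from 0 to 12.3 RPMM per library.
rno-miR-30a-5p: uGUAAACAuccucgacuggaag
rno-miR-30e-5p: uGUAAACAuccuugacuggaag
rno-miR-30c-5p: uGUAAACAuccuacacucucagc
rno-miR-384-5p: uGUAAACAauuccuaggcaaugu

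The * strands have other seeds and fall into 2 groups. miR-30a*, miR-30d* and miR-30e* share 1 seed, and miR-30c-1* and miR-30c-2* share another. The miR-30e* sequence below is that of its most common read, written as DNA.
rno-miR-30a-3p: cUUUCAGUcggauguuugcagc
miR-30e*: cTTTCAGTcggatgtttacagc
rno-miR-30c-1-3p: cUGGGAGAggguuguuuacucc
rno-miR-30c-2-3p: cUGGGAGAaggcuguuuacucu

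miR-30a and miR-30e differ at 1 position of their major strands (C13T, with miR-30a first and positions counted from 1 at the 5′ end) and at 1 position of their * strands (G18A). miR-30c comes from 2 hairpins with the same major strand and different * strands. In the RefSeq annotation the 6 genes lie as 3 pairs of neighbours among miRNA genes, Mir30c1 with Mir30e on chromosome 5, Mir30b with Mir30d on chromosome 7 and Mir30a with Mir30c2 on chromosome 9. The hairpins of 4 genes are given here because the reads are placed on them below. Capitals mark the most common read of the major strand, on the left, and of the * strand, on the right.
Mir30c1, chr5:139634455-139634543, minus strand: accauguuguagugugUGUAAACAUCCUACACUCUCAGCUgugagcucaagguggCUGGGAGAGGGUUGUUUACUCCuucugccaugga
Mir30e, chr5:139637450-139637541, minus strand: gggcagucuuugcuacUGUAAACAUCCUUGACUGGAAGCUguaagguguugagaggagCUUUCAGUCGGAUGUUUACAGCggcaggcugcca
Mir30a, chr9:33233941-33234011, plus strand: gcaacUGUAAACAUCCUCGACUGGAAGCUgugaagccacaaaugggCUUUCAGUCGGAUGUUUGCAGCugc
Mir30c2, chr9:33253682-33253765, plus strand: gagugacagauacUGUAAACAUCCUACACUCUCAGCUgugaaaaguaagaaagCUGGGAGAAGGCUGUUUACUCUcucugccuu

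The members are close enough in sequence that assignment of reads had to be checked. No read of the 5 major-strand entries was as near to the mature sequence of another member as to its own. Names shared between different members by the authors held 113 sequences and 1053 reads, or 0.132% of the family, and were kept as entries of their own. Names of the family from other species added between 0.0462% and 0.0658% to the rat reads of a library and are not members.

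The tissue was checked on other miRNAs. All 6 cardiac muscle markers (miR-1, miR-133a, miR-133b, miR-208, miR-208b and miR-499) were detected, and their sum ran from 51847 to 104410 RPMM in epicardium, from 101830 to 139021 in mid-myocardium and from 59045 to 100405 in endocardium. Nearly all of this sum was miR-133a. The red cell list (miR-451, miR-144 and miR-486) summed to between 92884 and 227558 RPMM, nearly all of it miR-486, which heart muscle also makes, while miR-451, the defining red cell miRNA, lay between 320 and 808. The smooth muscle list (miR-143 and miR-145) summed to between 89089 and 150587, mostly miR-143, and miR-122, miR-124, miR-375 and miR-200b of other tissues summed to at most 57.1. In bulk tissue, fewer cells of a type and less of a miRNA per cell cannot be told apart.

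The epicardium of heart 8 and the endocardium of heart 7 stood apart from the other 7 libraries. Their cardiac muscle sums were 51847 and 59045 RPMM, against 89340 to 139021 in the others, a gap carried by miR-133a. Other markers of the list did not go with it in the epicardium of heart 8, where miR-208 was at 438 RPMM, the second highest of the 9 libraries, miR-499 at 904 and miR-1 at 3240, both within the range of the other 7. In the endocardium of heart 7, miR-208 at 193 RPMM and miR-499 at 534 were the lowest of the 9. The miR-143 levels of the 2 libraries were 149159 and 138584 RPMM, above the other 7, while miR-145 was at 1429, its lowest, and 2193. miR-486 was at 161277 and 227057 RPMM, above the other 7, but miR-451 was at 320 and 417, below the other 7. Several results below are given with and without these libraries.

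miR-30a was the most read member. Its level was 29697, 33528 and 50323 RPMM in the epicardium of hearts 6, 7 and 8, 33744, 48916 and 49359 in mid-myocardium and 36942, 41443 and 44768 in endocardium. Heart 6 was lowest and heart 8 highest in each layer, and the layers overlapped throughout.

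miR-30d followed. It reached 30018, 30753 and 23121 RPMM in epicardium, 27283, 22315 and 24575 in mid-myocardium and 20037, 20827 and 27305 in endocardium. The epicardium of hearts 6 and 7 was above all other libraries, and with the epicardium of heart 8 at 23121 RPMM the layers overlapped.

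The level of miR-30c, counted over both of its hairpins, was 17605, 24170 and 12521 RPMM in epicardium, 15789, 19369 and 19362 in mid-myocardium and 26354, 13747 and 16462 in endocardium. Its highest and its lowest library thus came from the endocardium and the epicardium, which overlapped with each other and with mid-myocardium.

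miR-30e varied most among the major strands, 2.88-fold from the lowest to the highest library, against 1.53-fold for miR-30d. It was read at 8069, 8799 and 12324 RPMM in epicardium, 7352, 18487 and 21162 in mid-myocardium and 9259, 9702 and 16125 in endocardium. The mid-myocardium of hearts 7 and 8 held the highest levels and that of heart 6 the lowest, and within each layer heart 6 was lowest and heart 8 highest.

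miR-30b was the least read major strand, with 1854, 2377 and 1250 RPMM in epicardium, 1997, 2083 and 2429 in mid-myocardium and 2619, 1274 and 1813 in endocardium. Its 2 lowest libraries were the epicardium of heart 8 and the endocardium of heart 7.

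The order miR-30a, miR-30d, miR-30c, miR-30e, miR-30b held in 6 of the 9 libraries. miR-30d was first in the epicardium of heart 6, miR-30e was above miR-30c in the mid-myocardium of heart 8, and miR-30c was above miR-30d in the endocardium of heart 6. The ranges of neighbours in this order overlapped, except that the lowest miR-30e library was above the highest of miR-30b. Among 1004 entries detected in at least 1 library by rank of level, miR-30a stood between places 4 and 9, miR-30d between 7 and 11, miR-30c between 9 and 15, miR-30e between 10 and 21 and miR-30b between 38 and 51.

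The summed major strands ran from 86165 to 116886 RPMM, a narrower range in proportion than that of each of the 5 members. Layer means were 95470 ± 7125 in epicardium, 104740 ± 16339 in mid-myocardium and 96225 ± 9779 in endocardium.

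**Figure D1:**
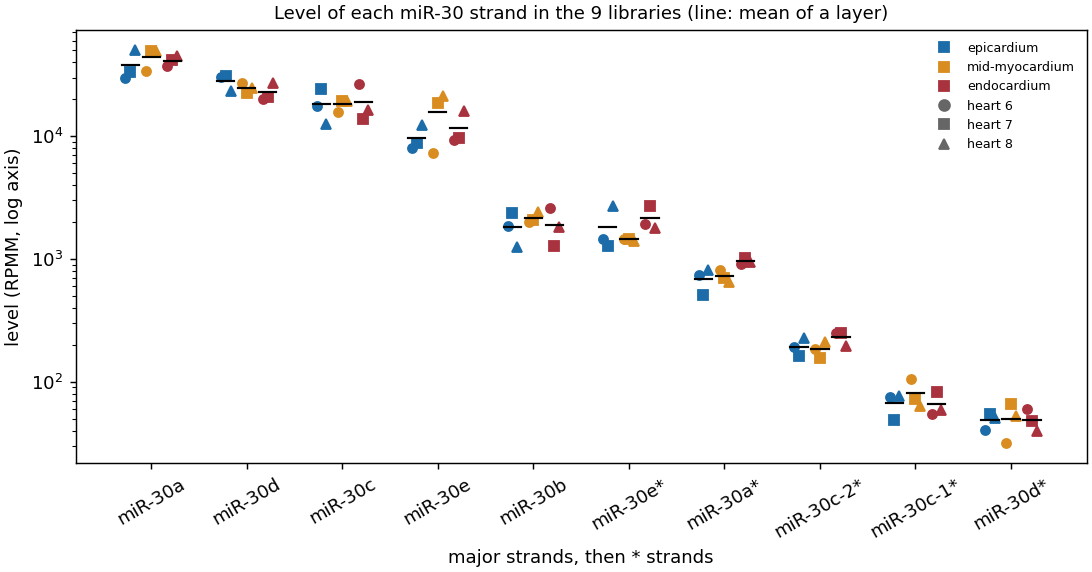
Level of each miR-30 major strand and * strand (RPMM, log axis) in the 9 libraries, coloured by layer and with a symbol for each heart, with a line at the mean of each layer (n = 3). Levels fall from about 41443 RPMM at the median for miR-30a to 50.4 for miR-30d*, and the layers overlap for each major strand.

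The * strands were less abundant and spanned a wider range. miR-30e* was read at 1445, 1285 and 2700 RPMM in epicardium, 1454, 1466 and 1407 in mid-myocardium and 1926, 2707 and 1772 in endocardium, so that it reached the level of the major strand of miR-30b. Its endocardial libraries were all above its mid-myocardial ones.

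miR-30a* was lower, at 739, 513 and 816 RPMM in epicardium, 806, 706 and 648 in mid-myocardium and 908, 1025 and 945 in endocardium. All 3 endocardial libraries were above all others. miR-30c-2* ranged from 157 to 252 RPMM, miR-30c-1* from 49.3 to 106 and miR-30d* from 31.7 to 66.4.

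The precursor reads of the family were mostly pieces of the mature arms. Of these reads 91.5% lay on the major arm, 7.93% on the * arm and 0.544% on neither. The precursor entries of miR-30a, miR-30d and miR-30e each held between 572 and 1194 RPMM, that of miR-30c between 50.4 and 155, and that of miR-30b between 5.70 and 20.4.

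The layers were compared to ask whether any member changes across the ventricular wall. No member passed the test between layers. Of the 29 entries 21 had at least 10 reads in at least 1 library (9 of 9 major, 6 of 8 * and 6 of 12 precursor entries) and were tested with all other entries of the study, 573 in all, by limma on log2(RPMM + 1) with Benjamini-Hochberg adjustment over the 573. At an adjusted p under 0.05 the test called 0 of 21 members between endocardium and epicardium, 0 of 21 between mid-myocardium and epicardium and 0 of 21 between endocardium and mid-myocardium, and 0 of the 573 entries (0%) in each of the 3 comparisons. edgeR's quasi-likelihood test and DESeq2 on the recovered reads called 0 of 21 members in each comparison as well.

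At an unadjusted p under 0.05, limma passed 0 of 21 members between endocardium and epicardium, where 3.14% of all entries passed. It passed 1 of 21 between mid-myocardium and epicardium, beside 3.14% of all entries, and 1 of 21 between endocardium and mid-myocardium, beside 4.71%. Both were the precursor reads of miR-30b, with 15, 13 and 19 reads in epicardium, 2, 10 and 6 in mid-myocardium and 9, 29 and 10 in endocardium. These few reads put mid-myocardium below epicardium by a log2 difference of -1.03 ± 0.35 (SE, limma adjusted p = 0.969), while the major strand of miR-30b differed by 0.29 ± 0.35 in the other direction. The count between mid-myocardium and epicardium was 2 without the mid-myocardium of heart 6, and that between endocardium and mid-myocardium was 0 without the epicardium of heart 6 or 7, the mid-myocardium of heart 6 or the endocardium of heart 7 or 8.

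The differences of the major strands were small beside their intervals. Between endocardium and epicardium the log2 differences (endocardium minus epicardium) ran from -0.30 ± 0.26 (SE) for miR-30d to 0.24 ± 0.44 for miR-30e, with a median over the 5 strands of 0.05. Over all 21 members the median was 0.01, and over the 573 entries it was -0.01. Mid-myocardium minus epicardium gave -0.17 ± 0.26 for miR-30d and 0.57 ± 0.44 for miR-30e, the largest difference of a major strand (limma adjusted p = 0.969). Without the epicardium of heart 8 and the endocardium of heart 7, miR-30e gave 0.76 between mid-myocardium and epicardium. In the same libraries miR-30d gave -0.38 between endocardium and epicardium, and neither passed the test. With all 9 libraries, the 95% intervals of the major strands reached between 1.51-fold and 1.98-fold to either side of the estimate. These intervals are not adjusted over the 573 entries, and the adjusted test detects less. On simulated reads, 100 entries were changed 2-fold and 100 others 4-fold in endocardium. Against epicardium the test called 18 of those changed 2-fold. Of the 36 of these with a mean of at least 100 reads it called 10. The adjustment is stricter where fewer entries change, so a lone 2-fold change may be called less often.

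Among the * strands, miR-30a* differed most between endocardium and epicardium, with 959 RPMM on average against 689, a log2 difference of 0.50 ± 0.27 (SE, 95% interval -0.11 to 1.11, limma adjusted p = 0.996). miR-30e* differed most between endocardium and mid-myocardium, with 2135 RPMM against 1442, a log2 difference of 0.54 ± 0.34 (adjusted p = 0.913 by limma). In each of these comparisons the layers did not overlap. Without the epicardium of heart 8 and the endocardium of heart 7 the differences were 0.59 for miR-30a* and 0.36 for miR-30e*, and neither passed the test.

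Layers without overlap were counted for all entries too. Between endocardium and epicardium 1 of 21 members (miR-30a*) did not overlap, beside 6.98% of all entries. Between mid-myocardium and epicardium 2 of 21 did not (the precursor reads of miR-30b and miR-30d), beside 10.1%. Between endocardium and mid-myocardium 2 of 21 did not (miR-30a* and miR-30e*), beside 11.2%.

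**Figure D2:**
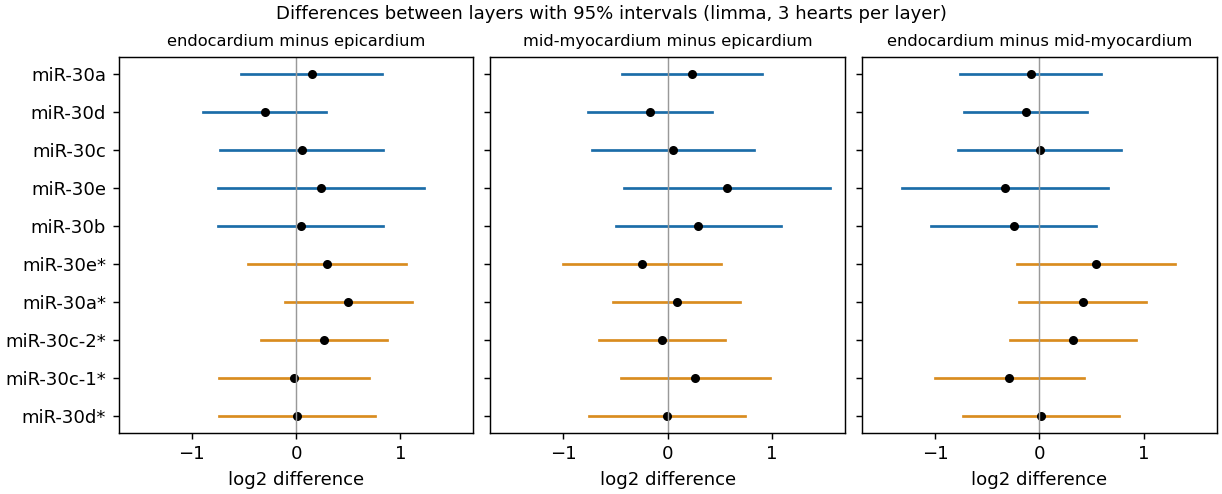
Log2 difference between layers of each major strand (blue) and * strand (orange), with a point at the estimate and a bar for the 95% interval of limma (3 libraries per layer). All bars cross 0, and the estimates of the 10 strands lie between -0.33 and 0.57.

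Baggerley's test, which weighs the libraries by depth, gave the only call of a member. It put miR-30d lower in endocardium than in mid-myocardium by a log2 difference of -0.11 (adjusted p = 0.0170 by Baggerley's test), among 18 calls over 556 entries. In both layers the weighted variance of miR-30d fell to the floor set by read counting. This p-value therefore covers counting error and not the spread between hearts. The 3 endocardial libraries held 20037, 20827 and 27305 RPMM and the 3 mid-myocardial ones 27283, 22315 and 24575, so the layers overlapped and endocardium held both the lowest and the highest library. Limma gave -0.13 ± 0.26 (SE, adjusted p = 0.933) for the same difference.

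Single sequences were compared in the same way, to ask whether a form of a miRNA moves without its sum. Sequences were kept where the mean of a layer reached 100 RPMM, and 57 of the 577 kept belonged to the family. Limma called 0 of the 57 in any comparison of layers, and 0 of the 577 (0%) in each. Unadjusted, 3 of the 57 passed in 1 comparison each, beside 2.25% of all sequences between endocardium and epicardium, 1.91% between mid-myocardium and epicardium and 2.95% between endocardium and mid-myocardium. They were a form of miR-30d of 22 nts that ends in A, with 750 RPMM in endocardium and 1276 in epicardium (log2 difference -0.76 ± 0.28, SE, limma adjusted p = 0.997), a form of miR-30d of 23 nts with 183 RPMM in mid-myocardium and 348 in epicardium (limma adjusted p = 0.940), and miR-30a* without its first nt, with 203 RPMM in endocardium and 132 in mid-myocardium (limma adjusted p = 0.820). This unadjusted count rested on single libraries. It became 12 of 57 without the mid-myocardium of heart 6, 6 of 56 without the endocardium of heart 8, 5 of 56 without the epicardium of heart 8, 1 without the epicardium or the mid-myocardium of heart 7 and 0 of 56 without the endocardium of heart 7, while the adjusted count stayed at 0.

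Other miRNAs linked to fibrosis and hypertrophy of the heart were set beside the family, as a list chosen with results of these data known. All 10 (miR-21, miR-29a, miR-29b, miR-29c, miR-133a, miR-133b, miR-24, miR-26a, miR-208 and miR-499) were measured, in 13 entries. Limma called 0 of the 13 entries in either direction in each comparison of layers, and 0 passed at an unadjusted p under 0.05. miR-499, which is encoded in a myosin gene, came nearest, with a log2 difference of -0.71 ± 0.35 (SE) between endocardium and mid-myocardium (limma adjusted p = 0.913).

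The hearts were compared because each animal gave all 3 layers. A limma F test over hearts, with layer as a covariate, called 0 of 21 members and 0 of 573 entries (0%), and passed 0 of 21 members at an unadjusted p under 0.05, beside 10.6% of all entries. edgeR called 0 of 21 members and 16 of the 573 entries, and DESeq2 called 0 of 21 and 23, each passing 1 member unadjusted. miR-30e came nearest, with means over the layers of hearts 6, 7 and 8 of 8227, 12329 and 16537 RPMM (F = 4.48, adjusted p = 0.461 by limma). miR-30a was ordered in the same way, with 33461, 41296 and 48150 RPMM. The hearts stood in 1 order in all 3 layers for 4 of 21 members (miR-30a, miR-30e and the precursor reads of both), beside 3.66% of all entries. Precursor reads of the family were mostly pieces of the major arm (91.5%), so the 4 are not independent.

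The members did not move as 1 block across the libraries. The ratio of miR-30b to miR-30c was the steadiest of the 10 pairs of major strands. It was 0.105, 0.0984 and 0.0999 in the epicardium of hearts 6, 7 and 8, 0.126, 0.108 and 0.125 in mid-myocardium and 0.0994, 0.0927 and 0.110 in endocardium, a span of 1.36-fold, while each of the strands varied over 2.09-fold or more.

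miR-30a and miR-30e came next, with ratios between 2.33 and 4.59, a span of 1.97-fold. All other pairs spanned at least 2.22-fold, up to 3.20-fold for miR-30d and miR-30e. On log2 values over the 9 libraries Pearson's r was 0.914 for miR-30b with miR-30c, 0.858 for miR-30a with miR-30e and -0.53 for miR-30a with miR-30d. The libraries share 3 animals, and members of a library share its total, so these values are descriptions.

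Members that lie side by side in the genome were not the steadiest pairs. miR-30b and miR-30d of chromosome 7 had ratios between 0.0541 and 0.131 (a span of 2.42-fold, r = 0.19), and miR-30c and miR-30e, whose genes Mir30c1 and Mir30e are neighbours on chromosome 5, had ratios between 0.915 and 2.85 (3.11-fold, r = -0.03). For miR-30a and miR-30c, whose genes Mir30a and Mir30c2 are neighbours on chromosome 9, ratios lay between 1.39 and 4.02 (2.90-fold, r = -0.33). Mir30b and the 2 genes of miR-30c lie on different chromosomes. miR-30c reads cannot be divided between Mir30c1 and Mir30c2, which give the same major strand. By sequence, the leading reads of miR-30b and miR-30c share their first 18 nts, more than the 11 or 12 that other pairs with miR-30b or miR-30c share. The leading read of miR-30a shares its last 12 nts with that of miR-30d (r = -0.53) and its last 11 with that of miR-30e (r = 0.858). Whether place in the genome or sequence bears on these ratios was not tested.

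**Figure D3:**
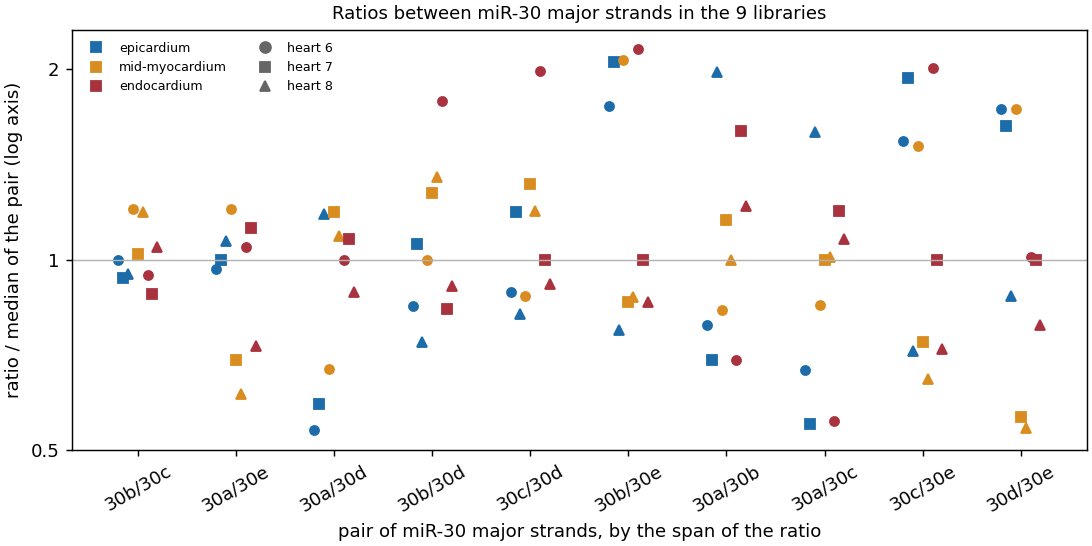
Ratio of each pair of miR-30 major strands in the 9 libraries, divided by the median of the pair (log axis) and ordered by its span. The ratio of miR-30b to miR-30c stays within 1.36-fold, and that of miR-30d to miR-30e spans 3.20-fold.

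The 2 libraries that stood apart in miR-133a, miR-143 and miR-486 also lay outside the other 7 for miR-30b, miR-30c and miR-30e*. How many entries outside the family did so was not counted, so this cannot be read as particular to the family. miR-30b was at 1250 and 1274 RPMM in the epicardium of heart 8 and the endocardium of heart 7, against 1813 to 2619 in the other 7 libraries. miR-30c was at 12521 and 13747 RPMM, against 15789 to 26354. miR-30e* was at 2700 and 2707 RPMM, against 1285 to 1926. Both libraries lay within the range of the others for miR-30d and miR-30e. The part of cell content in these levels was not tested. Without these 2 libraries the ratio of miR-30b to miR-30c spanned 1.29-fold over 7 libraries, with r = 0.856, and limma called 0 of 21 members in each comparison of layers.

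By the same measure, the entries most like the summed major strands were sought among 190 other entries whose mean reached 100 RPMM. The 5 highest values of Pearson's r over the 9 libraries were those of the precursor reads of miR-208 (0.891), miR-301a (0.875), miR-499 (0.846), miR-208 (0.846) and miR-29b (0.827). miR-208 and miR-499 are both encoded within myosin genes of muscle. The same 5 entries ran with single members unequally, since miR-301a had r = 0.945 with miR-30e and -0.35 with miR-30d.

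The share of reads on the * strand separated the hairpins. Of the reads of both strands of miR-30e, the * strand held 15.2%, 12.7% and 17.97% in the epicardium of hearts 6, 7 and 8, 16.5%, 7.35% and 6.23% in mid-myocardium and 17.2%, 21.8% and 9.90% in endocardium. The lowest and the highest of these carry 95% Wilson intervals of 5.93% to 6.55% and 21.2% to 22.4%, which cover counting error only, since reads amplified by PCR carry no molecular identifiers here and may copy 1 molecule.

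No other hairpin with a * entry came near. No sequence was filed under a * strand of miR-30b, so the share of its hairpin could not be measured. The * strand of miR-30a held between 1.30% and 2.43% of its reads, that of miR-30c-2 between 0.661% and 1.78%, that of miR-30c-1 between 0.204% and 0.665% and that of miR-30d between 0.116% and 0.301%. For the hairpins of miR-30c the major strand is shared, so each * strand was set against the reads of both. miR-30a and miR-30e thus differed widely in this share although their strands differ at 1 nt each.

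The share also varied within miR-30e, 3.50-fold over the libraries. It was low in the 3 libraries with the most miR-30e (the mid-myocardium of hearts 7 and 8 and the endocardium of heart 8). The major strand is part of the share, so a higher level of it lowers the share by construction. In the mid-myocardium of hearts 6, 7 and 8, miR-30e* was at 1454, 1466 and 1407 RPMM and miR-30e at 7352, 18487 and 21162. The * share of miR-30e was highest in the endocardium of heart 7 and the epicardium of heart 8, the 2 libraries that stood apart. There the * share of miR-30c-2 was highest too, at 1.78% in both against 0.661% to 1.17% in the others. The part of their cell content in this share was not tested.

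Between layers, limma on the log2 ratio of * to major strand called 0 of 5 miR-30 hairpins among 59 hairpins tested. It called 0 of 59 (0%) between endocardium and epicardium, 0 of 59 (0%) between mid-myocardium and epicardium and 1 of 59 (1.69%) between endocardium and mid-myocardium, which became 0 of 59 with heart as replicate block. The nearest was miR-30e, whose log2 ratio was 0.87 ± 0.48 (SE) higher in endocardium than in mid-myocardium (limma adjusted p = 0.559), and 0.58 higher without the 2 libraries that stood apart. At an unadjusted p under 0.05 the counts were 0 of 5, beside 1.69%, 8.47% and 10.2% of all hairpins in the same 3 comparisons.

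**Figure D4:**
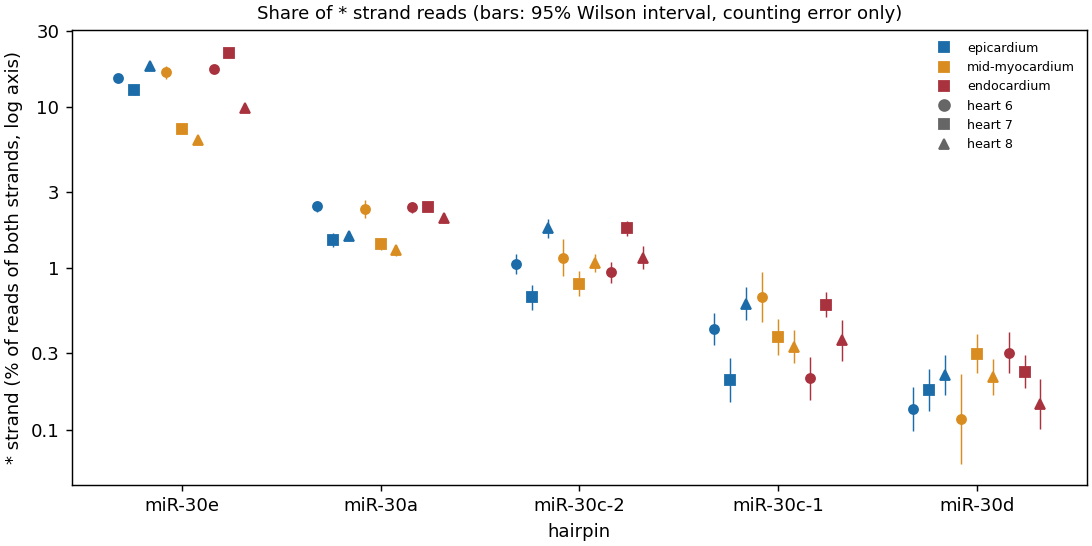
Share of * strand reads among the reads of both strands for each hairpin with a * entry (percent, log axis) in the 9 libraries, with 95% Wilson intervals. miR-30e lies between 6.23% and 21.8% and each other hairpin shown at 2.43% or below.

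The ends of the reads were set against the database entries. The most common read of each major strand began at the first nt of its entry and ended in the same 4 nts, AGCT, whatever the length of the entry. This read was 24 nts long for miR-30a, miR-30c, miR-30d and miR-30e and 22 for miR-30b. It was 2 nts longer than the entry for miR-30a, miR-30d and miR-30e, 1 nt longer for miR-30c and the entry itself for miR-30b. In capitals are the seeds of the most common reads that show this.
miR-30a: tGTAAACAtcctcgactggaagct
miR-30e: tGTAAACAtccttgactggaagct
miR-30c: tGTAAACAtcctacactctcagct

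The exact entry therefore held very different shares of each member. It was 91.3% ± 1.46 of the reads of miR-30b (n = 9), 11.2% ± 2.17 of miR-30c, 3.29% ± 0.55 of miR-30d, 3.15% ± 0.46 of miR-30a and 1.19% ± 0.21 of miR-30e. The most common read held 91.3% ± 1.46, 81.2% ± 2.33, 53.8% ± 4.47, 55.0% ± 3.31 and 75.9% ± 1.15 of the same strands. A count of exact entries alone would put miR-30c at 2031 RPMM, miR-30b at 1797, miR-30a at 1295, miR-30d at 837 and miR-30e at 150 on average, an order in which miR-30b stands above miR-30a.

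miR-30a and miR-30d had a further group of short reads. Of miR-30a reads 15.4% ± 2.22 (12.7% to 18.9%) were 20 nts long and 10.02% ± 1.71 were 21, both without the last bases of the entry, beside 8.05% ± 0.34 of 23 nts and 3.15% of 22. The first of these is the second most common miR-30a sequence, at 6321 RPMM on average.
miR-30a, 20 nts: tGTAAACAtcctcgactgga
miR-30a, 21 nts: tGTAAACAtcctcgactggaa

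miR-30d showed the same forms, with 9.09% ± 1.07 at 20 nts and 9.69% ± 2.45 at 21. In miR-30e, which shares the last 11 nts of its leading read with both, the forms of 20 and 21 nts held 1.46% ± 0.395 and 1.90% ± 0.37. In miR-30c they held 0.125% ± 0.051 and 0.715% ± 0.12. Reads that ended before the entry held from 21.6% to 29.9% of miR-30a and from 3.31% to 5.13% of miR-30e over the 9 libraries. Members of a library are not replicates, so this difference carries no test.

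Annotation limited which ends could be seen under a major strand. The major-strand entries held only reads that ended between 2 nts before and 3 nts after the end of the entry, and shorter reads were filed as precursor reads. Among these shorter reads the form of 19 nts amounted to 0.343% of the major strand of miR-30a, 0.696% of miR-30d and 2.24% ± 1.00 of miR-30e (0.714% to 3.42%). The form of 16 nts amounted to 0.684% of miR-30a, 1.73% of miR-30d and 1.08% of miR-30e.

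**Figure D5:**
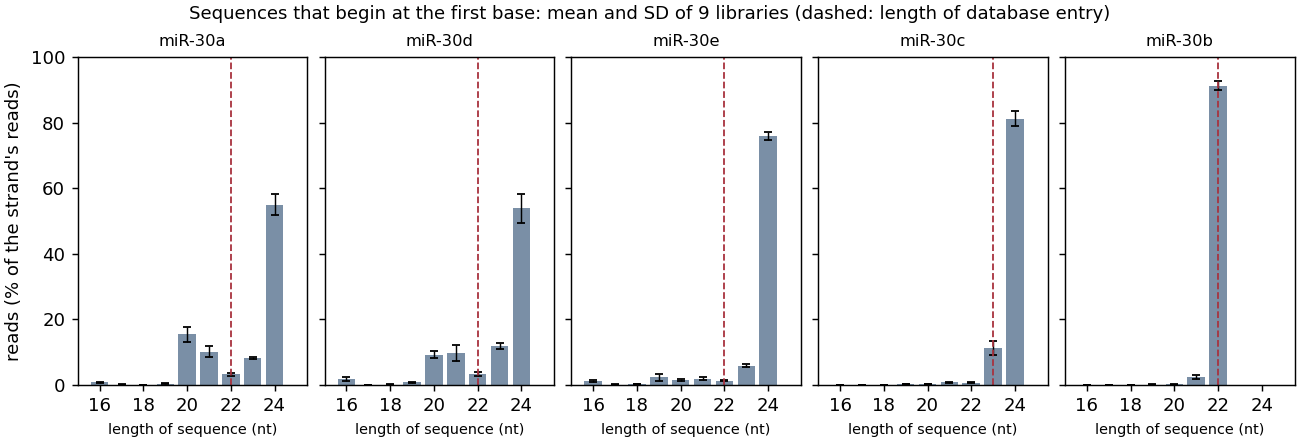
Share of each major strand's reads held by its leading read and by that read shortened at the 3′ end, by length (mean and SD of 9 libraries, with reads filed as precursor included). The leading length is 24 nts, or 22 for miR-30b, and only miR-30a and miR-30d have bars of 9.09% or more at both 20 and 21 nts.

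Of the reads 1 nt longer than the leading read, more ended in T than in any other base for each member. In the 4 hairpins shown above, those of miR-30a, miR-30c and miR-30e, the next base is G, so this T is not that of the hairpin. Unannotated reads described below carry a miR-30 sequence followed by TGGAAT, which also starts with T. Whether the added T was joined to the miRNA or is adapter left on the read was not tested. The hairpins of miR-30b and miR-30d were not used here. Reads with an added T held 3.35% ± 0.41 of miR-30e, 2.06% ± 0.29 of miR-30d, 1.11% ± 0.27 of miR-30b, 1.05% ± 0.13 of miR-30a and 1.01% ± 0.18 of miR-30c. An added G held 0.524% of miR-30b, against 0.0074% of miR-30a, 0.0201% of miR-30c, 0.0156% of miR-30d and 0.0229% of miR-30e. An added A held 0.523% of miR-30b, 0.317% of miR-30c, 0.207% of miR-30e, 0.1196% of miR-30d and 0.0655% of miR-30a. In miR-30b, added G and A together thus came near the added T.

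The 5′ end, which sets the seed, was almost fixed on the major strands, with 1 exception. Reads that began elsewhere than the entry were 0.545% ± 0.076 of miR-30a, 0.336% ± 0.19 of miR-30b, 0.482% ± 0.083 of miR-30c, 0.546% ± 0.11 of miR-30d and 4.23% ± 0.31 of miR-30e. In miR-30e this share ran from 3.85% to 4.87% over the libraries, above the highest of any other major strand (0.760%). Most of it was 1 sequence without the first nt, whose nts 2 to 8 are TAAACAT in place of GTAAACA and which held 3.44% ± 0.24 of miR-30e and 426 RPMM on average.
miR-30e, 1 nt shorter at the 5′ end: gTAAACATccttgactggaagct

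The * strands began less evenly. Reads with a shifted 5′ end were 35.8% ± 1.58 of miR-30a* (33.7% to 38.3%), 29.0% ± 4.30 of miR-30d*, 8.69% ± 0.70 of miR-30e*, 5.77% ± 3.97 of miR-30c-1* and 4.30% ± 2.12 of miR-30c-2*. Reads without the first nt made up 35.1% ± 1.73 of miR-30a* and 8.38% ± 0.70 of miR-30e*. miR-30a* and miR-30e* have the same seed and differ at 1 nt, and their ranges did not overlap in these libraries. miR-30d* and miR-30c-1* rested on few reads, 382 in all 9 libraries for miR-30d*.

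The last base of the * strands differed as well. Full-length reads with C22T held 14.9% ± 1.97 of miR-30e*, 11.2% ± 4.69 of miR-30d* and 2.90% ± 0.53 of miR-30a*, positions being counted from the first nt of the entry. In miR-30e* the share lay between 10.8% and 18.2% in the 9 libraries, and in miR-30a* between 2.26% and 3.90%.

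The share of reads that extend past the entry was compared between layers for 81 major strands with at least 50 reads in every library. Limma on the log2 ratio of longer to other reads called 0 of 5 miR-30 strands and 0 of 81 (0%) in each comparison. Unadjusted, 1 of 5 passed between endocardium and epicardium, beside 2.47% of all strands, and 0 of 5 passed in the others, beside 6.17% and 1.23%. It was miR-30a, of which 65.4%, 67.5% and 64.5% of reads were longer in epicardium, 69.0%, 65.0% and 69.3% in mid-myocardium and 74.3%, 72.8% and 68.7% in endocardium. The endocardial libraries were above the epicardial ones, with a log2 difference of 0.42 ± 0.16 (SE, limma adjusted p = 0.994). Without the epicardium of heart 8 and the endocardium of heart 7 the difference was 0.35 (limma adjusted p = 0.984). Over the 3 comparisons the unadjusted count of 1 became 3 without the epicardium of heart 6, 2 without the endocardium of heart 8, and 0 without the epicardium of heart 8 or the endocardium of heart 6 or 7.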

How the data were processed

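Small RNA of 3 layers of 3 hearts was sequenced as TruSeq libraries. Per the labels, the authors trimmed reads and aligned them to miRBase 18 in CLC Genomics Workbench 4.0. The annotated sequences were deposited as RPM over the annotated reads of a library, written RPMM. A grouped table was deposited as a signal scaled to 2 different totals, and unannotated sequences as a raw count with at least 10 reads. Every value above 0 in the read-level file was a whole number of reads within 0.02 reads, so reads were recovered.

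Entries were summed by rat name and strand and kept where 1 library or more held 10 reads, and tested by limma 3.58.1 on log2(RPMM + 1) over all 9 libraries with layers as groups, p-values adjusted by Benjamini-Hochberg and called under 0.05. A fold change on this scale understates low entries. Read ends were placed on the mature entry with up to 3 nts of shift. Alternatives were edgeR 4.0.16, DESeq2 1.42.0, Baggerley's test (rebuilt here from its weighted proportions, not run in the Workbench), TMM, other totals, pseudocounts, filters and read sets, heart as block, and libraries left out. Leaving out the 2 libraries lowest in the cardiac marker sum, which is mostly miR-133a, was chosen after seeing the data. The members and lists were chosen with earlier results of these data known. Named were all members by strand, the 3 most read sequences of each major strand and the first of each * strand, the mature entries, sequences past the adjusted threshold and the 5 entries most like the family. Other sequences, forms and the nearest misses of a test were named after their values were seen. R 4.3.3 and Python 3.11.15 were used.

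The heart number pairs the libraries, since each animal gave all 3 layers. Deviations from layer means over 440 entries correlated by 0.205 on average between libraries of 1 heart (-0.141 to 0.495, 9 pairs) and by -0.0993 between hearts (18 pairs). On simulated reads with the spread of these libraries, 100 of 573 entries were changed 4-fold and 100 others 2-fold in the same run. Limma called 79 of the first and 18 of the second between endocardium and epicardium.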

Additional observations from a re-analysis of the deposited data

Results flagged for a closer look

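Reads left without annotation by the authors also began like members of the family. Among 13317 unannotated sequences 6 began with the first 18 nts of a miR-30 major strand (2 of miR-30a, 3 of miR-30d and 1 of miR-30e) and were 27 to 30 nts long. They had 439 reads over the 9 libraries, from 16 to 79 per library, which is above the 3 reads that a count of 0 allows. They amount to 0.0549% of the reads of the family. In 4 of the 6, with 341 reads, the miR-30 sequence was followed by TGGAAT. These 4 were each 30 nts long. Whether the added bases are adapter left on the reads was not tested.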

How the results depend on the processing

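The count of members called stayed at 0 for entries, unique sequences, * ratios and 3′ extension in 134 of 135 alternative counts, and the other was Baggerley's test between endocardium and mid-myocardium, which called 1 (miR-30d, adjusted p = 0.0170 by Baggerley's test, against 0.848 to 1 under the other settings). With heart as replicate block, limma called 0 members in each comparison of layers and 0 unique sequences, hairpins and extended strands, and changed no call of a member. Without the 2 libraries lowest in miR-133a, an alternative chosen after seeing the data, the counts were also 0. With each library left out in turn the counts ranged from 0 to 0. Unadjusted, 0 to 3 members passed in a comparison of entries over the alternatives, and 0 to 13 unique sequences (12 of 57 without the mid-myocardium of heart 6, and 13 of 187 with the level asked for lowered to 10 RPMM). Among 360 alternative levels 2 moved by more than 1 SD, 1 with TMM scaling and 1 with precursor reads added to their arm. Among 330 alternative shares 14 did, all when sequences under 10 reads in a library were left out. The design limits what can be seen: 3 hearts per layer left intervals of the major strands up to 1.98-fold to either side, and mid-myocardium of heart 6, the shallowest library, cannot show less than 10.6 RPMM with 3 reads.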
